A study of Mus musculus with 6 samples.

Results

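DNA replication and mitosis genes were examined in splenic CD8 T cells of mice, sorted for CD45, CD3 and CD8a. The set is a fixed list of 48 gene symbols, all 48 of which are among the 17744 genes of the deposited table: 22 with a role in S phase or its onset and 26 with a role in mitosis, Ccna2 and Cdk1 among the latter. RNA-seq was done on 6 libraries, 3 from control animals labelled wild type (wt) and 3 from animals whose treatment is given as focused ultrasound (fus) irradiation, here called ultrasound libraries. The genotype entry of the treated animals repeats the treatment, so that their genotype is not stated. Focused ultrasound concentrates sound waves on a tissue, and the series title names the spleen as the target. Strain, age, sex, ultrasound dose, the interval to sorting and any pooling of animals are not stated in the sources used here, so the p-values measure only the spread between these libraries.

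A dividing cell copies its genome in S phase and separates the copies in mitosis. Replication begins where the Mcm2 to Mcm7 helicase has been loaded on DNA by Cdc6 and Cdt1, continues with polymerases held by the Pcna sliding clamp, and consumes deoxynucleotides made by ribonucleotide reductase (Rrm1 and Rrm2). Mitosis is driven by cyclin B with Cdk1 and by the Plk1 and Aurora kinases, and ends when the anaphase promoting complex destroys cyclins. Most splenic CD8 T cells rest outside the cycle, and transcripts of both phases are used as a sign of dividing cells after antigen stimulation. In textbook accounts E2F factors bind the promoters of S phase genes, while the CHR element, next to CCAAT boxes bound by NF-Y, marks promoters of mitotic genes.

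The promoters show how the 2 classes differ in sequence. RefSeq promoters of build GRCm38.p6 (the mm10 assembly named in the submitters' processing notes), from 250 bases before to 50 bases after the start site, matched 41 members, 19 of S phase with 22 promoters and 22 of mitosis with 23; Aurkb, Ccna2, Ccne2, Gins2, Kif20a, Mcm4 and Tpx2 had no entry. An E2F motif (TTTCCCGC, TTTCGCGC, TTTGCCGC or TTTGGCGC on either strand) lay in 8 of 22 S phase promoters (36.4%) and in 1 of 23 mitotic promoters (4.35%), beside 4.08% of the 10890 promoters of all genes tested and 2.26% of all 32851 promoters. A CHR motif (TTTGAA or TTCGAA on either strand) lay in 18 of 23 mitotic promoters (78.3%) and in 5 of 22 S phase promoters (22.7%), beside 14.4% and 19.2%. CCAAT on either strand lay in 19 mitotic promoters (82.6%) and 14 S phase promoters (63.6%), beside 38.1% and 37.4%. A match is a run of letters and not evidence of binding.

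The 200 bases before the start site are printed for 6 members, chosen after their values were seen, with every E2F, CHR and CCAAT match in capitals. Pcna, at chr2:132253181-132253380 (minus strand), is shown because its level fell. It holds CCAAT on the reverse strand and none of the E2F or CHR words searched. Mcm6, at chr1:128359706-128359905 (minus strand), and Mcm5, at chr8:75109309-75109508 (plus strand), are shown as S phase promoters with 3 and 2 E2F matches, an overlapping pair among them in each. Mki67, at chr7:135716380-135716579 (minus strand), Top2a, at chr11:99024190-99024389 (minus strand), and Ube2c, at chr2:164769729-164769928 (plus strand), are shown as mitotic promoters and hold 2, 4 and 1 CHR matches with several CCAAT boxes.
Pcna: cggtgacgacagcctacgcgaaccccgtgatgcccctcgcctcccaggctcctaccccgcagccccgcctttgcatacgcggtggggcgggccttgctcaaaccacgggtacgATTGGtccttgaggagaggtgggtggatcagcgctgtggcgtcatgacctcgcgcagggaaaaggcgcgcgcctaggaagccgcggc
Mcm6: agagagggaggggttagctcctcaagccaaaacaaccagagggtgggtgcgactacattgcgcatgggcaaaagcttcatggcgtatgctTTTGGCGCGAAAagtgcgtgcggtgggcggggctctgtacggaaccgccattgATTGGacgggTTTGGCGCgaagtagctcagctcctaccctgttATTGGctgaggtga
Mcm5: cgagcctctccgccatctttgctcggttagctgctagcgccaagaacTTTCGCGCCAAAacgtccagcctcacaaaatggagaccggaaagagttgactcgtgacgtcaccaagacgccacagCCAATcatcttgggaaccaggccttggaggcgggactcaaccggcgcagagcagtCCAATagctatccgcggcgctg
Mki67: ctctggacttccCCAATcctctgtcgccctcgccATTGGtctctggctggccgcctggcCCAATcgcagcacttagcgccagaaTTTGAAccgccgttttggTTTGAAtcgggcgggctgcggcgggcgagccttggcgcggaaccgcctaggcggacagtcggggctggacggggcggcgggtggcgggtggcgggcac
Top2a: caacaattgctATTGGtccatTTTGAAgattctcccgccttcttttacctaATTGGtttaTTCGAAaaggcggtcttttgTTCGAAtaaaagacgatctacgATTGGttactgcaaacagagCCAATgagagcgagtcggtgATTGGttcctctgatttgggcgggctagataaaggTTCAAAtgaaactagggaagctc
Ube2c: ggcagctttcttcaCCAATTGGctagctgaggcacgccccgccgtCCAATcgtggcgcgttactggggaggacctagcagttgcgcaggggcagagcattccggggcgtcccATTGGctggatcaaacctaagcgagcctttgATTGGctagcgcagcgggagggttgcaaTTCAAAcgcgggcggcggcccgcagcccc

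Reads recovered from the deposited values numbered 35024080 to 38113103 per library, and the least covered member, Ccne2, had 62 reads in its lowest library. The ultrasound libraries did not form a tight group: ultrasound 1 stood apart from ultrasound 2 and 3, and counts of called genes rested on single libraries. Results are therefore given with all libraries, without ultrasound 1, and for ultrasound 1 alone against the controls. The 6 sort markers Ptprc, Cd3d, Cd3e, Cd3g, Cd8a and Cd8b1 were present in every library, with a summed level of 2089 to 2181 FPKM in controls and 1808 to 2112 in ultrasound libraries. FPKM is the level of a gene scaled to gene length and library depth, so levels of different genes can be compared.

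Across the set, 1 of 48 members was called as different between the groups. All 48 entered the test, limma on log2(FPKM + 1) over 10655 genes with Benjamini-Hochberg adjustment over all of them, and Pcna alone met the threshold of 0.05. Of all 10655 genes 8.11% met it, 6.55% with a higher and 1.56% with a lower mean after ultrasound. Before adjustment 3 members (Pcna, Ccne2 and Pola1) had p under 0.05, against 31.2% of all genes tested. The median log2 change of the members was -0.030, with 28 below 0 and 20 above, while the median over all genes tested was 0.087, with 38.3% below 0. With median-of-ratios scaling, which moves the median of all genes to -0.023, 40 members (53% of all genes) lay below 0. Ccne2 was then called beside Pcna, among 4.39% of all genes, which were 281 higher and 187 lower in place of 698 and 166. By voom on recovered reads Pcna was again the 1 member called, beside 5.38% of all genes, and 6 members had an unadjusted p under 0.05, beside 30.5%. Changes of members are for that reason best read relative to the median of all genes. That gave -0.12 for S phase and -0.14 for mitotic members as deposited, and -0.12 and -0.14 with median-of-ratios scaling. Scaling moves all genes of a library by nearly the same log2 step, so the 2 pairs had to be alike. The values rested on single libraries. They were 0.027 and 0.063 without ultrasound 1, -0.060 and -0.022 without control 1, and -0.19 and -0.32 without ultrasound 2. In bulk RNA, fewer dividing cells and less of these transcripts per cell cannot be told apart.

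**Figure D1:**
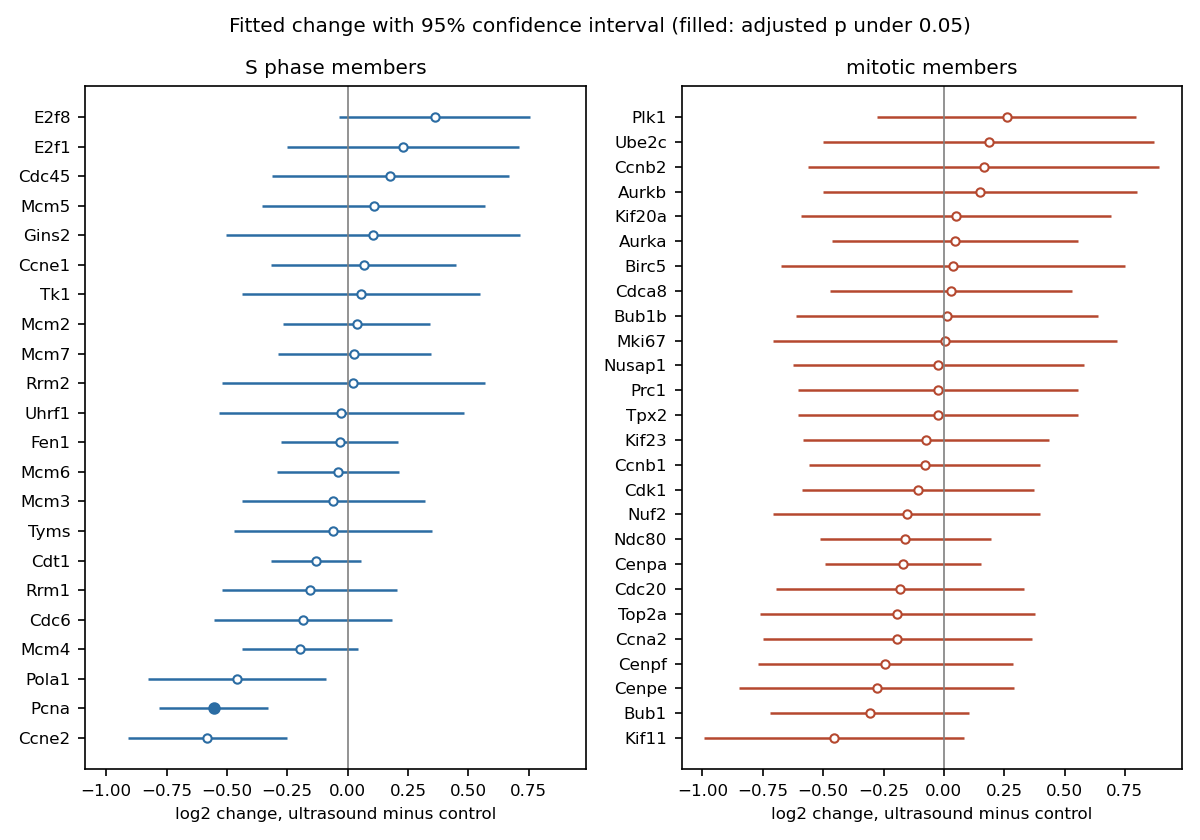
Log2 change of each member (ultrasound minus control, log2(FPKM + 1) scale, horizontal axis) with its 95% confidence interval, for S phase members (left) and mitotic members (right), each sorted by change. Pcna carries the filled point (limma adjusted p 0.0311), and the other intervals that exclude 0 are those of Ccne2 and Pola1.

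Libraries of 1 group differed more than the groups did. The 48 members summed to 875, 836 and 735 FPKM in controls 1, 2 and 3, and to 617, 895 and 733 FPKM in ultrasound 1, 2 and 3. Pcna makes up a large part of these sums. Without it the other 47 members summed to 696, 645 and 555 FPKM in controls and 481, 771 and 618 FPKM in ultrasound libraries. Ultrasound 2 was the highest library and ultrasound 1 the lowest in both sums, while ultrasound 3 lay just below the lowest control with Pcna and between the controls without it. Ultrasound 1 held the lowest value of all 6 libraries for 40 of 48 members, against 13.8% of all genes tested, and ultrasound 2 the highest for 32, against 24.1%. Among the controls, control 3 was the lowest for 42 members, against 41.0% of all genes tested.

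**Figure D2:**
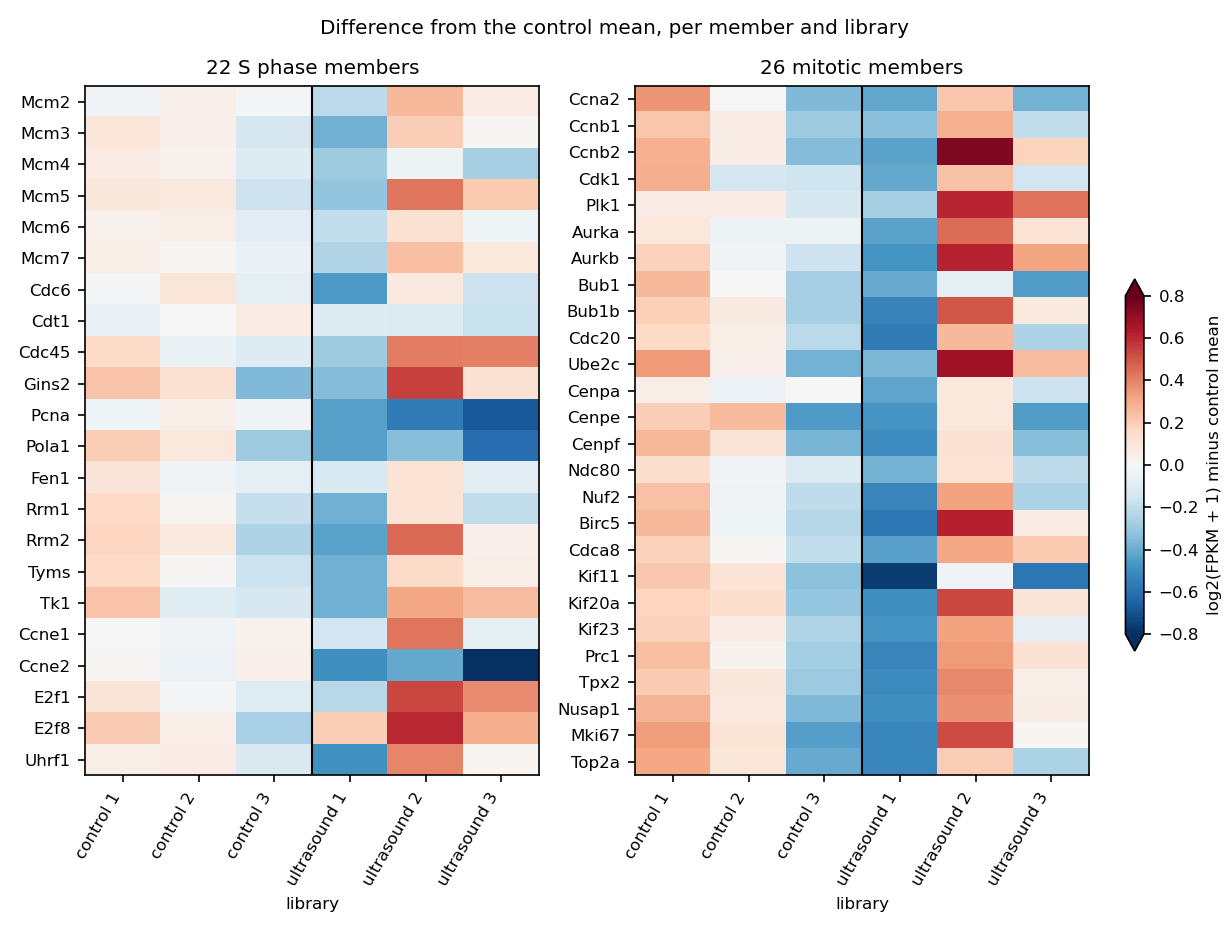
Difference of each member from its control mean (colour, log2(FPKM + 1), red higher and blue lower) in the 6 libraries (columns), for 22 S phase members (left) and 26 mitotic members (right). The ultrasound 1 column is blue for 47 of 48 members. The Pcna, Pola1 and Ccne2 rows are blue in all 3 ultrasound libraries. So are those of Cdt1, Mcm4, Bub1 and Kif11, which are faint in ultrasound 2 (-0.11, -0.040, -0.073 and -0.028).

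Pcna (NCBI Gene 18538), the sliding clamp that holds polymerases on DNA, had the highest level of the set and fell in ultrasound libraries. It had 179, 191 and 181 FPKM in controls 1, 2 and 3 and 136, 124 and 115 FPKM in ultrasound 1, 2 and 3. Every ultrasound library lay below every control, from 184 ± 6.34 to 125 ± 10.4 FPKM (SD, n = 3 each), a log2 change of -0.56 ± 0.0951 (SE, limma adjusted p 0.0311). In the authors' deposited table its log2 fold change is -0.68 with q of 1.24e-07. The adjusted p was above 0.05 under several alternatives, among them without a filter on low genes (0.0592), for ultrasound 1 alone (0.0636) and when any 1 library other than ultrasound 1 was left out (0.0534 to 0.161). Its log2 change stayed between -0.68 and -0.43 across the alternatives tried.

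Complete separation of the groups was rare. Besides Pcna, the members Pola1, Ccne2 and Cdt1 had all 3 ultrasound values under all 3 control values, which makes 4 of 48, against 8.96% of all genes tested. None had all 3 ultrasound values above all 3 control values, against 25.9% of all genes tested. Pola1 and Cdt1 are named here after their values were seen. Pola1, the catalytic subunit of DNA polymerase alpha, which primes new strands, had 5.86, 5.34 and 3.91 FPKM in controls 1, 2 and 3 and 3.43, 3.73 and 2.92 FPKM in ultrasound 1, 2 and 3 (log2 change -0.46 ± 0.155, SE, limma adjusted p 0.108). Ccne2, cyclin E2, a partner of Cdk2 at the entry into S phase, had 1.70, 1.60 and 1.76 FPKM in controls 1, 2 and 3 and 0.907, 1.02 and 0.499 FPKM in ultrasound 1, 2 and 3 (log2 change -0.58 ± 0.139, SE, limma adjusted p 0.0511). With median-of-ratios scaling its adjusted p was 0.0497, with upper-quartile scaling 0.0474 and without ultrasound 1 0.00970. Cdt1, which loads the helicase on origins, had 32.2, 33.5 and 34.9 FPKM in controls 1, 2 and 3 and 31.1, 31.0 and 29.6 FPKM in ultrasound 1, 2 and 3, a narrow gap (log2 change -0.13 ± 0.0785, SE, limma adjusted p 0.282). In the authors' deposited table q is under 0.05 for 4 members, all lower, namely Pcna, Mcm4 (0.0316), Pola1 (0.00663) and Ccne2 (0.00331). In the authors' deposited table as a whole 12.3% of genes have q under 0.05, and 4.98% have it with a lower mean.

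**Figure D3:**
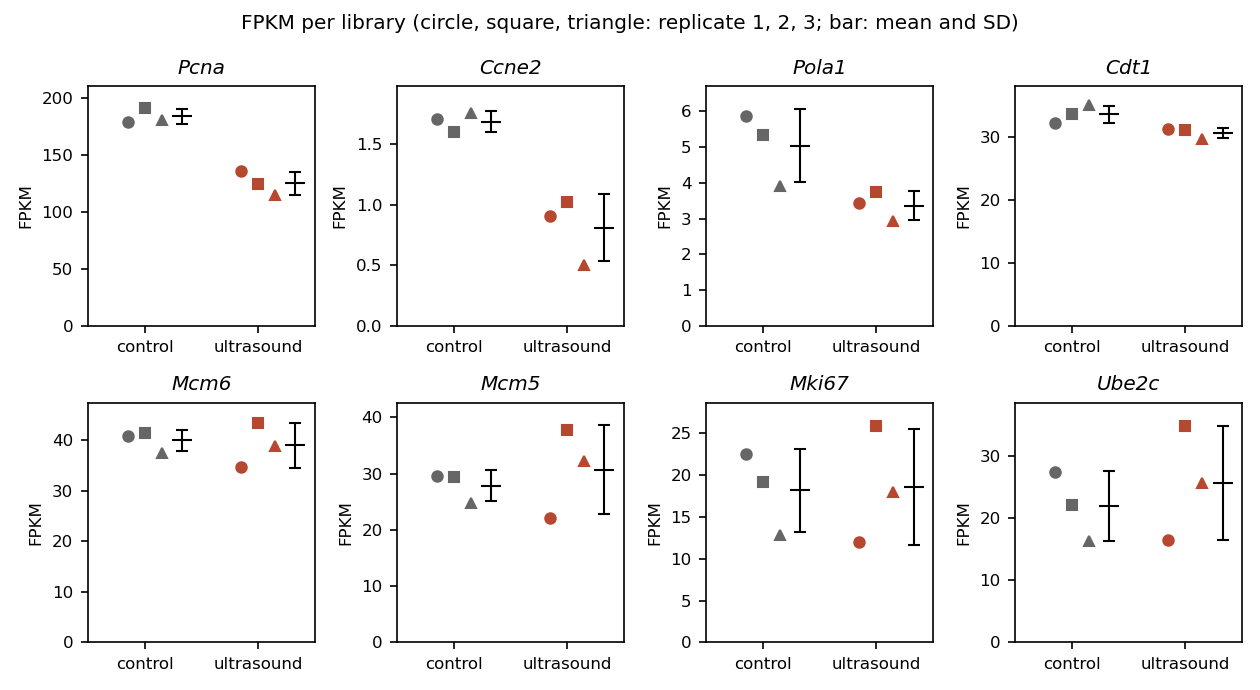
FPKM per library for 8 members (vertical axis from 0 in each panel), controls in grey and ultrasound libraries in red, with the mean and SD of each group beside the points. Pcna, Ccne2, Pola1 and Cdt1 separate the groups, while in Mcm6, Mcm5, Mki67 and Ube2c the groups overlap, with ultrasound 2 (square) the highest library in each and ultrasound 1 (circle) the lowest in all but Ube2c.

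No helicase gene passed the test. Of the 10 members that load or form the replicative helicase, limma called 0, against 8.11% of all genes. For so few genes 0 calls lies near that share. At an unadjusted p under 0.05 were 0, against 31.2%. Voom also called 0, against 5.38%, and had 2 at that p, against 30.5%. The authors' deposited table has 1 with q under 0.05, Mcm4, against 12.3% of all genes. Mcm6 had 40.8, 41.5 and 37.5 FPKM in controls 1, 2 and 3 and 34.6, 43.5 and 38.9 FPKM in ultrasound 1, 2 and 3. Mcm7 had 41.4, 40.2 and 38.5 FPKM against 33.7, 47.5 and 42.5, Mcm3 40.3, 38.7 and 34.1 FPKM against 28.5, 43.2 and 37.9, and Mcm2 32.5, 34.2 and 32.9 FPKM against 28.5, 39.9 and 34.8, in the same order of libraries. These are subunits of 1 ring, and in each of them ultrasound 1 was the lowest library and ultrasound 2 the highest. Mcm5, with 29.6, 29.3 and 24.7 FPKM in controls 1, 2 and 3 and 22.1, 37.8 and 32.2 FPKM in ultrasound 1, 2 and 3, followed the same order, and Mcm4 differed in that control 1 was its highest library (37.5, 36.8 and 33.4 FPKM against 29.2, 34.8 and 29.7). The 6 log2 changes ran from -0.20 ± 0.102 for Mcm4 to 0.11 ± 0.195 for Mcm5 (SE), with limma adjusted p from 0.225 to 0.892. All 6 lay below 0 with median-of-ratios scaling, Mcm5 nearest to it at -0.014. The 95% interval for Mcm6 was -0.29 to 0.21 and that for Mcm5 -0.36 to 0.57, so each holds changes of both signs.

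The 4 genes of deoxynucleotide supply were all lowest in ultrasound 1. Rrm1, the large subunit of ribonucleotide reductase, had 26.7, 24.1 and 20.8 FPKM in controls 1, 2 and 3 and 18.0, 25.7 and 20.6 FPKM in ultrasound 1, 2 and 3 (log2 change -0.16 ± 0.152, SE, limma adjusted p 0.488). Rrm2, its small and cycle-regulated subunit, had 22.5, 21.0 and 16.6 FPKM in controls 1, 2 and 3 and 14.5, 27.6 and 20.5 FPKM in ultrasound 1, 2 and 3 (log2 change 0.024 ± 0.229, SE, limma adjusted p 0.950). The highest library was control 1 for Rrm1 and ultrasound 2 for Rrm2, and the groups overlapped. Of the 4 genes, Tyms and Tk1 included, 0 were called by limma or voom, with 0 at an unadjusted p under 0.05 by either, and 0 have q under 0.05 in the authors' deposited table. Among the regulators of S phase entry Uhrf1, which keeps DNA methylation through replication, had the highest level, with 15.3, 15.5 and 13.6 FPKM in controls 1, 2 and 3 and 10.3, 19.7 and 14.9 FPKM in ultrasound 1, 2 and 3 (log2 change -0.027 ± 0.213, SE, limma adjusted p 0.938). Ultrasound 1 and 2 lay outside its controls on opposite sides.

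Mitotic genes overlapped between the groups without exception, while 8.96% of all genes tested lay fully lower and 25.9% fully higher after ultrasound. Of 26 members 0 were called by limma, against 8.11% of all genes, with 0 at an unadjusted p under 0.05, against 31.2%. By voom 0 were called, against 5.38%, with 1 at that p, against 30.5%. By the values of the authors' deposited table, q is under 0.05 for 0, against 12.3% of all genes. There 2 have an unadjusted p under 0.05, against 4636 of all 17744 genes. Mki67, which coats mitotic chromosomes and is the common marker of dividing cells, had 22.5, 19.2 and 12.8 FPKM in controls 1, 2 and 3 and 12.0, 25.8 and 17.9 FPKM in ultrasound 1, 2 and 3. Its controls alone spanned 12.8 to 22.5 FPKM, and ultrasound 1 and 2 fell outside that range on opposite sides (log2 change 0.0041 ± 0.299, SE, 95% interval -0.71 to 0.72, limma adjusted p 0.994). Top2a, the topoisomerase that untangles sister chromatids, had the highest mean level of the mitotic members, with 35.5, 30.5 and 21.3 FPKM in controls 1, 2 and 3 and 19.5, 32.8 and 23.8 FPKM in ultrasound 1, 2 and 3 (log2 change -0.19 ± 0.240, SE, limma adjusted p 0.591). There control 1 was the highest library and ultrasound 1 the lowest.

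The groups overlapped for the regulators of mitosis as well. Ccnb2, a B-type cyclin, had 16.4, 13.9 and 10.2 FPKM in controls 1, 2 and 3 and 9.60, 23.0 and 15.2 FPKM in ultrasound 1, 2 and 3 (log2 change 0.16 ± 0.306, SE, limma adjusted p 0.723). Ccna2, cyclin A, which acts from S phase into mitosis, had 15.8, 12.1 and 9.27 FPKM against 8.83, 14.2 and 9.12 FPKM in the same order of libraries (log2 change -0.19 ± 0.234, SE, limma adjusted p 0.580). Both had ultrasound 1 as the lowest library, while the highest was ultrasound 2 for Ccnb2 and control 1 for Ccna2. Plk1, the kinase that matures the spindle poles, had 10.3, 10.3 and 8.88 FPKM in controls 1, 2 and 3 and 7.98, 15.5 and 13.6 FPKM in ultrasound 1, 2 and 3 and the largest positive change among mitotic members (log2 change 0.26 ± 0.225, SE, limma adjusted p 0.440). Bub1, a kinase of the spindle checkpoint, had a change of the opposite sign, with 4.01, 3.20 and 2.48 FPKM in controls 1, 2 and 3 and 2.17, 2.97 and 2.06 FPKM in ultrasound 1, 2 and 3 (log2 change -0.31 ± 0.173, SE, limma adjusted p 0.256). Ube2c, the ubiquitin-conjugating enzyme of the anaphase promoting complex, had 27.5, 22.1 and 16.3 FPKM in controls 1, 2 and 3 and 16.6, 34.9 and 25.7 FPKM in ultrasound 1, 2 and 3, so that control 3 and ultrasound 1 were both low and ultrasound 2 was more than 2-fold above either (log2 change 0.19 ± 0.288, SE, limma adjusted p 0.669).

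Genes of the centromere and the spindle were not called either. Cenpa, the histone that marks centromeres, had the narrowest control range of the 26 mitotic members on the log2(FPKM + 1) scale. Its levels were 21.8, 20.4 and 21.1 FPKM in controls 1, 2 and 3 and 15.4, 22.4 and 18.7 FPKM in ultrasound 1, 2 and 3 (log2 change -0.17 ± 0.136, SE, limma adjusted p 0.408). Cenpe, a kinetochore motor, had 4.51, 4.73 and 2.51 FPKM against 2.46, 4.10 and 2.52 FPKM in that order (log2 change -0.28 ± 0.240, SE, limma adjusted p 0.437). In Cenpe control 3, ultrasound 1 and ultrasound 3 were low and the other 3 libraries high. Kif11, the motor that pushes spindle poles apart, had the largest negative change among mitotic members, with 11.7, 10.8 and 7.73 FPKM in controls 1, 2 and 3 and 5.46, 9.73 and 6.34 FPKM in ultrasound 1, 2 and 3 (log2 change -0.46 ± 0.226, SE, limma adjusted p 0.210). Kif23, a motor of the central spindle, had 14.4, 13.1 and 10.4 FPKM against 8.76, 15.9 and 11.9 FPKM (log2 change -0.072 ± 0.214, SE, limma adjusted p 0.830). For both motors ultrasound 1 was the lowest library, and the highest was control 1 for Kif11 and ultrasound 2 for Kif23.

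The medians of S phase and mitotic genes had the same sign in 5 of 6 libraries, and the mitotic median lay further from 0. Relative to the control mean, the median S phase member lay at 0.092, 0.038 and -0.10 in controls 1, 2 and 3 and the median mitotic member at 0.22, 0.056 and -0.27, all as differences of log2(FPKM + 1). In ultrasound 1 the medians were -0.33 for S phase and -0.48 for mitotic members, in ultrasound 2 0.22 and 0.32, and in ultrasound 3 0.013 and -0.024. The median over all genes tested lay at 0.062, 0.13 and 0.088 in these 3. As deposited, ultrasound 1 was therefore low in both classes, ultrasound 2 high in both, and ultrasound 3 close to the controls. With median-of-ratios scaling the medians were -0.43 and -0.57 in ultrasound 1, 0.056 and 0.17 in ultrasound 2 and -0.081 and -0.12 in ultrasound 3. Controls 1, 2 and 3 then lay at 0.088, 0.025 and -0.086 for S phase and at 0.22, 0.043 and -0.26 for mitotic members. With that scaling ultrasound 2 and 3 lay within the range of the controls in both classes, and ultrasound 1 below it. As deposited, the narrower set of Mcm2 to Mcm7, Pcna, Rrm1 and Rrm2 gave -0.32, 0.20 and 0.012 in ultrasound 1, 2 and 3. In ultrasound 2 Pcna lay at -0.56 and Mcm4 at -0.040, while the other 7 lay above 0.

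**Figure D4:**
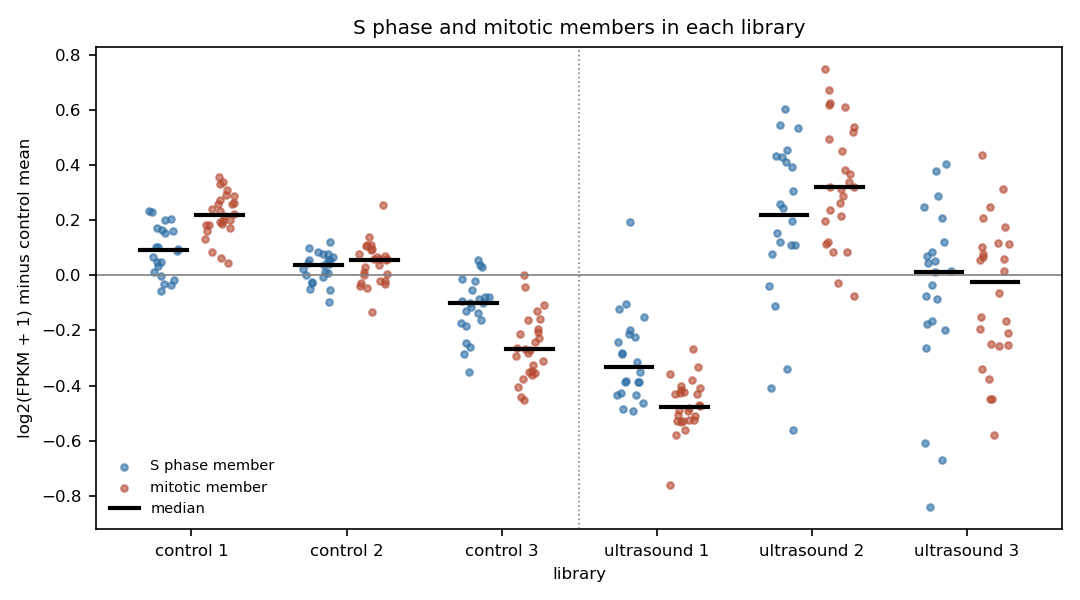
Difference of each member from its control mean (vertical axis, log2(FPKM + 1)) in each library (horizontal axis), S phase members in blue and mitotic members in red, with black bars at the medians. The mitotic bar lies farther from 0 than the S phase bar in all 6 libraries, by the widest margin in controls 1 and 3, ultrasound 1 and ultrasound 2.

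Between the groups the medians of the 2 classes were close. The median log2 change was -0.030 for S phase members, with 12 of 22 below 0, and -0.15 with median-of-ratios scaling. For mitotic members it was -0.048, with 16 of 26 below 0, and -0.16 with that scaling. S phase minus mitotic was 0.018 as deposited. Without control 1 or ultrasound 1 the sign of that difference turned, to -0.038 and -0.036. The difference was not tested, since the members were chosen with results of these data known. Within groups the classes differed more: the median distance between the highest and the lowest control was 0.19 for S phase and 0.49 for mitotic members, and 0.18 over all genes tested. Among the ultrasound libraries the same distance was 0.51, 0.84 and 0.35. The median member of the S phase class had a mean level of 14.1 FPKM and that of the mitotic class 8.23 FPKM, and the log2(FPKM + 1) scale understates differences of low genes.

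**Figure D5:**
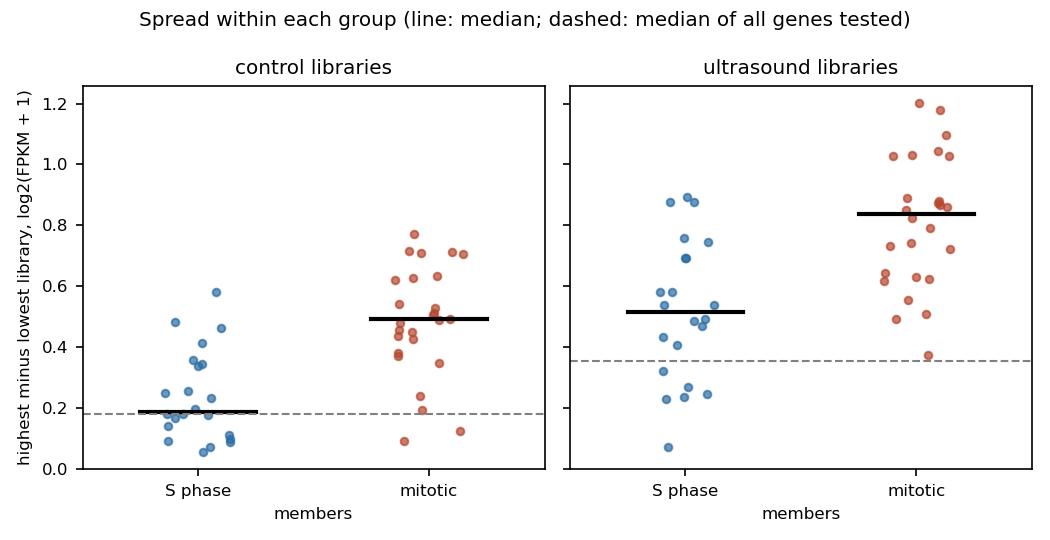
Distance between the highest and lowest library of a group on the log2(FPKM + 1) scale (vertical axis) for S phase and mitotic members, in controls (left) and ultrasound libraries (right). Solid bars are class medians, and the dashed line is the median of all genes tested (0.18 and 0.35), near the S phase bar in controls and below both bars in ultrasound libraries.

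Ultrasound 1 alone lay below all 3 controls for 45 of 48 members, against 23.1% of all genes tested, and the exceptions were E2f8, Gins2 and Ube2c (the first 2 named after their values were seen). Fitted against the controls, with ultrasound 2 and 3 in a term of their own, it gave a median log2 change of -0.33 over S phase and -0.48 over mitotic members, with 47 of 48 members below 0 against 37.9% of all genes. By limma 0 members were called, with 16 at an unadjusted p under 0.05. In that fit 1.41% of all genes were called and 22.1% had an unadjusted p under 0.05, and the single library is assumed to vary like the other groups. E2f8, a repressor of the E2F family, chosen here for its value, was the 1 member with a positive change there (0.19, limma adjusted p 0.627). Its levels were 3.73, 3.26 and 2.43 FPKM in controls 1, 2 and 3 and 3.70, 5.23 and 4.01 FPKM in ultrasound 1, 2 and 3.

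Without ultrasound 1, 8 members were called by limma in place of 1, against 53.6% of all genes; Cdc45, E2f1, Aurkb and Pola1 are named after their values were seen. Higher in ultrasound 2 and 3 than in controls were the helicase genes Mcm5 (0.32 ± 0.106, 0.0378) and Cdc45 (0.41 ± 0.108, 0.0164), the transcription factor E2f1 (0.46 ± 0.102, 0.00844) and the mitotic kinases Plk1 (0.52 ± 0.0969, 0.00411) and Aurkb (0.46 ± 0.132, 0.0221), each with its log2 change, SE and limma adjusted p. Lower were Pcna (-0.62 ± 0.0710, 7.41e-04), Ccne2 (-0.62 ± 0.144, 0.00970) and Pola1 (-0.47 ± 0.162, 0.0436). In this fit 33.8% of all genes were called higher and 19.9% lower, so 5 and 3 of 48 members are a smaller share than that of all genes in both directions. Below 0 lay 15 members, against 39.6% of all genes. The median log2 change was 0.13 over S phase and 0.17 over mitotic members, beside 0.11 over all genes. Ultrasound 2 lay above all controls for 32 members and ultrasound 3 for 11, against 53.2% and 49.6% of all genes tested.

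By limma the lists of other cycle genes gave few calls, and all of these were lower. Of 47 other replication genes tested 0 were called by limma, against 8.11% of all genes, with 6 at an unadjusted p under 0.05, against 31.2%. By voom 0 were called, with 12 at that p, against 30.5% of all genes. By the authors' deposited table, 6 are lower at q under 0.05, against 4.98% of all genes. The largest positive change was that of Gins4, a helicase subunit, with 16.7, 16.4 and 15.2 FPKM in controls 1, 2 and 3 and 18.0, 24.9 and 22.6 FPKM in ultrasound 1, 2 and 3 (log2 change 0.40 ± 0.129, SE, limma adjusted p 0.0965). The largest negative change was that of Hells, a chromatin remodeller, with 3.39, 3.43 and 2.40 FPKM against 2.21, 1.41 and 1.03 FPKM (log2 change -0.69 ± 0.199, SE, limma adjusted p 0.0777). Of 64 other mitotic genes tested 2 fell and 0 rose, against 1.56% of all genes lower and 6.55% higher, and 10 had an unadjusted p under 0.05. By voom 2 fell, against 220 of all 10655 genes, with 14 at that p, against 30.5%. The authors' deposited table has q under 0.05 with a lower mean for 8, against 4.98% of all genes. Smc4, a condensin subunit, went from 80.8 ± 5.89 to 40.4 ± 15.2 FPKM (SD, n = 3 each) (log2 change -1.04 ± 0.241, SE, limma adjusted p 0.0481), and Esco2, an acetyltransferase for cohesin named after its value was seen, from 3.15 ± 0.368 to 1.65 ± 0.333 FPKM (SD, n = 3 each) (log2 change -0.65 ± 0.137, SE, limma adjusted p 0.0402). Bub3, a checkpoint protein, had the largest positive change, with 31.3, 28.6 and 30.2 FPKM against 30.5, 56.4 and 54.5 FPKM (log2 change 0.58 ± 0.228, SE, limma adjusted p 0.142), and ultrasound 1 lay within its controls. Ultrasound 1 was the lowest of the 6 libraries for 38 of these 64 genes, and for 23 of the 47 replication genes.

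Among 13 tested inhibitors of the cycle and pocket proteins, 2 fell and 0 rose, against the same 1.56% and 6.55% of all genes. By voom 2 fell, and 3 are lower at q under 0.05 by the authors' deposited table. Btg2, an antiproliferative gene, had 147, 155 and 211 FPKM in controls 1, 2 and 3 and 98.5, 71.4 and 78.9 FPKM in ultrasound 1, 2 and 3 (log2 change -1.03 ± 0.178, SE, limma adjusted p 0.0311). Its relative Btg1, named after its value was seen, had 335, 303 and 301 FPKM against 229.6, 186 and 181 FPKM in that order (log2 change -0.66 ± 0.119, SE, limma adjusted p 0.0312). For both, the groups did not overlap. These calls and those of Smc4 and Esco2 are lost without the filter on low genes and when control 2, control 3, ultrasound 2 or ultrasound 3 is left out, since limma then called 0 genes of any kind. Fzr1, an activator of the anaphase promoting complex, had the largest positive change, with 18.4, 18.5 and 18.4 FPKM against 19.2, 28.8 and 28.4 FPKM (log2 change 0.42 ± 0.159, SE, limma adjusted p 0.131).

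Markers of other cells moved between the same libraries. The 8 B cell markers summed to 368, 239 and 238 FPKM in controls 1, 2 and 3 and 177, 928 and 810.3 in ultrasound 1, 2 and 3, so ultrasound 1 was the lowest and ultrasound 2 the highest library, as for the members, although ultrasound 3 was also far above the controls. Still, limma and voom called 0 of 8, with 0 at an unadjusted p under 0.05. Without ultrasound 1 limma called 8 of 8 higher, against 33.8% of all genes. Germinal centre B cell markers, from a cell type that divides rapidly, summed to 15.4 to 18.5 FPKM in controls and 16.7 to 23.8 in ultrasound libraries, with 0 of 4 tested called by limma (1 at an unadjusted p under 0.05), 0 of 4 by voom (0 at that p) and Mef2b listed at 0 in ultrasound 2. Without ultrasound 1 limma called 3 of these 4 higher. Plasma cell markers summed to 122 to 193 FPKM in controls and 317 to 402 in ultrasound libraries, with 4 of 6 tested higher by limma, against 6.55% of all genes, and 5 of 6 by the authors' deposited table. Monocyte and macrophage markers summed to 789 to 1171 FPKM in controls and 2246 to 3817 in ultrasound libraries, with 4 of 12 higher by limma, 11 of 12 at an unadjusted p under 0.05, and 9 of 12 higher by the authors' deposited table. Neutrophil markers summed to 192 to 584 FPKM in controls and 657 to 2411 in ultrasound libraries. Here 4 of 12 were higher by limma, against 6.55% of all genes, and 6 of 12 in the authors' deposited table, against 1295 of 17744. Erythroid markers, whose precursors also divide in spleen, summed to 112 to 161 FPKM in controls and 71.1 to 133 in ultrasound libraries. NK cell markers summed to 57.7 to 68.0 FPKM in controls and 46.7 to 235 in ultrasound libraries (1 of 5 tested higher), CD4 T cell markers to 179 to 206 FPKM in controls and 129 to 203 in ultrasound libraries, dendritic cell markers to 20.5 to 43.9 FPKM in controls and 27.2 to 70.0 in ultrasound libraries and platelet markers to 5.05 to 5.99 FPKM in controls and 8.25 to 11.5 in ultrasound libraries. Among these other lists only the NK cell sum was also lowest in ultrasound 1 and highest in ultrasound 2. Gzma and Eomes made up most of that sum. Of the other NK cell markers, named after their values were seen, Ncr1 and Klrb1c lay above every control in ultrasound 1. They had 0.533 and 5.15 FPKM there, against 0.133 to 0.228 and 1.14 to 1.96 in controls. Klra8 and Klre1 lay between the controls in ultrasound 1. Germinal centre B cell, dendritic and platelet sums were highest in ultrasound 2 but lowest in a control. The neutrophil sum was highest in ultrasound 1, and the erythroid and CD4 T cell sums were lowest in ultrasound 2. The CD4 T cell markers did not move together there. In ultrasound 2 Ctla4 (14.4 FPKM, against 81.5 to 88.8 in controls) and Icos lay below every control. Cd4, Cd40lg and Foxp3 lay between the controls, and Zbtb7b above them (19.4 FPKM, against 8.81 to 11.5). Plasma cell, monocyte and macrophage, neutrophil and platelet sums lay above every control in all ultrasound libraries. The part of all these cells in the values of the members was not tested.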

How the data were processed

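The authors' table gives FPKM per gene and library, with HISAT2, HTSeq, DESeq2, R 3.2.0 and build mm10 named in the submitters' processing notes without their roles. Per the file headers it also holds a signal (group means of DESeq2 normalized counts), their ratio as fold change, its log2, and a p-value and q-value for each gene, all deposited by the authors. A second deposited table, a filtered subset, was not used.

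Groups and replicate numbers came from sample titles. Members and lists were chosen with earlier results of these data known. The main test was limma (version 3.58.1, R 4.3.3), with its trend and robust options, on log2 of FPKM + 1. It was two-sided and took genes reaching 1 FPKM in 3 or more libraries, with Benjamini-Hochberg adjustment and a threshold of 0.05. Fold changes on this scale are understated for low genes. Intervals are at 95%.

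FPKM and group means obey one linear relation (largest relative deviation 6.27e-07), which gives reads: of 64001 values under 1000 reads, 100% lay within 0.05 of a whole number. Reads carry no molecular identifiers, so counting error is the only error they describe. On simulated data with fold 2 and dispersion 0.05 the fit recovered 57.1% of 196 changed genes among 10672, with 7 false calls. These figures hold for that fold and dispersion. They do not give the recovery or the false calls on the measured libraries, where fits that each left out a library called 0 to 5628 genes.

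Named members are, in each of 10 roles, the one with the highest level and the one with the largest change, with Mki67, Mcm2 to Mcm7, Pcna, Rrm1, Rrm2 and every member called; others are marked as named after their values were seen or are counted. From each list of other cycle genes the genes with the largest positive and the largest negative change are named. Alternatives covered the pseudocount, filter, scaling, a replicate block, voom, a separate term for the libraries ultrasound 2 and 3, the authors' values and each library left out. Python 3.11.15, numpy 2.4.6, pandas 2.3.3 and matplotlib 3.10.9 were used.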

Additional observations from a re-analysis of the deposited data

How the results depend on the processing

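The main result, 1 member among 864 genes called, changed with the setting, and the cause was not tested. Median-of-ratios factors gave 468 genes and 2 members, upper-quartile factors 2 members, voom 573 genes, and the values of the authors' deposited table gave 2179 genes and 4 members. No filter and the replicate block each gave 0 genes and 0 members, with 4216 and 3249 genes and 3 members in each at an unadjusted p under 0.05. When ultrasound 2 and 3 had a term of their own, 150 genes and 0 members were called, with 2352 and 16 at that p. Leaving out 1 library gave 0 to 5628 genes and 0 to 8 members, the highest without ultrasound 1. Without control 1 it gave 571 genes, and without control 2, control 3, ultrasound 2 or ultrasound 3 it gave 0, with 1945, 2137, 1971 and 1913 at an unadjusted p under 0.05. The S phase median was -0.15, -0.14, -0.14 and -0.14 with median-of-ratios factors, upper-quartile factors, voom and the authors' values, and -0.33 with the term, where the mitotic median was -0.48. Leaving out 1 library gave -0.13 to 0.13 for S phase, -0.26 to 0.17 for mitotic members and -0.038 to 0.13 for their difference. A pseudocount of 0.1 gave 854 genes and 1 member. Libraries that share a replicate number had correlations of -0.041, 0.051 and 0.058 between their deviations from the group means, so the numbers were not taken as pairs. The replicate block took the adjusted p of Pcna to 0.0862, and no other named member was called in either fit.

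Pcna kept its direction under all 14 alternatives and its adjusted p under 6. Directions turned only for members not called in the main analysis. With median-of-ratios factors these were Mcm2 (-0.084), Mcm5 (-0.014), Mcm7 (-0.094), Mki67 (-0.11), Rrm2 (-0.10); with upper-quartile factors Mcm2 (-0.072), Mcm5 (-0.0017), Mcm7 (-0.082), Mki67 (-0.10), Rrm2 (-0.084); with voom Mcm2 (-0.066), Mcm7 (-0.077), Mki67 (-0.10), Rrm2 (-0.079); in the authors' deposited table Mcm2 (-0.076), Mcm7 (-0.085), Mki67 (-0.10), Rrm2 (-0.070); with the term Ccnb2 (-0.43), Mcm2 (-0.21), Mcm5 (-0.32), Mcm7 (-0.24), Mki67 (-0.52), Plk1 (-0.27), Rrm2 (-0.43), Ube2c (-0.36). Among fits that each left out 1 library, some turned for Ccnb2 (-0.13 to 0.46), Kif23 (-0.27 to 0.13), Mcm2 (-0.072 to 0.16), Mcm3 (-0.19 to 0.10), Mcm5 (-0.054 to 0.32), Mcm6 (-0.12 to 0.042), Mcm7 (-0.079 to 0.16), Mki67 (-0.25 to 0.27), Rrm2 (-0.19 to 0.25), Ube2c (-0.057 to 0.46), Uhrf1 (-0.24 to 0.20). Each group has 3 libraries, which limits the precision, and each member had 62 or more reads in every library.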
